A study of Rattus norvegicus with 6 samples.

Results

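The genes described here are the JAK kinases, the STAT transcription factors, the cytokine, interferon and hormone receptors that feed them, and the SOCS, CISH, PIAS and phosphatase genes that restrain them, with the kinase gene Pim1. They were measured in rat back skin during the rash caused by inhibitors of the epidermal growth factor receptor (EGFR). A list of 41 gene names set the membership by role in the pathway, and 40 of the names were found among the 34225 loci of the count table. The name Il4ra has no row there. The interleukin-4 receptor appears under its rat symbol Il4r, and its values are given beside the others without entering any count. A minimum on low counts left 39 of the 40 genes among the 16398 loci tested. Il7r, with 1 to 27 counts per library, was not tested.

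All 6 libraries came from Sprague-Dawley rats. The afatinib group had 2 libraries from rats given 30 mg/kg afatinib by mouth each day, and the gefitinib group had 2 libraries from rats given 80 mg/kg gefitinib in the same way; dosing in both groups lasted until a rash appeared, so the time on drug may differ between rats. The control group had 2 libraries from untreated rats, and the labels name no vehicle. Gefitinib is a reversible EGFR inhibitor, and afatinib blocks EGFR and its ERBB relatives irreversibly. The labels give no age or sex and do not say that the 2 libraries of a group came from separate animals, so p-values measure only the spread between these libraries. In whole skin, fewer cells of a type and less RNA per cell cannot be told apart.

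Cytokines and growth hormone act by bringing 2 receptor chains together, which lets the JAK kinases bound to those chains phosphorylate each other, the receptor and the STAT proteins. STATs then pair, enter the nucleus and switch on genes that include their own brakes, SOCS proteins and CISH. In skin the pathway carries interferon-gamma, type I interferon and IL-6 family signals to keratinocytes, and IL-4 and IL-13 signals in allergic inflammation.

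Libraries held 17206456 to 22086673 counts. The skin samples differed in tissue makeup: 25 skeletal muscle genes took 19.3% and 6.81% of counts in afatinib skin and 6.36% and 10.6% in gefitinib skin, against 24.8% and 22.6% in untreated skin. Keratinocyte genes (9 of 9 found) took 0.229% to 0.588% in afatinib skin and 0.287% to 0.327% in gefitinib skin, against 0.0720% to 0.114% in untreated skin. Of the marker genes tested, 5 of 10 hair genes were called higher in afatinib skin and 10 of 10 in gefitinib skin, against untreated skin (median log2 change 3.86 and 4.79). Over all loci 3.6% and 12.3% were called higher. The hair genes Krt34, Krt72 and Krt86 had 0 to 7 untreated counts and passed the minimum through inhibitor libraries. Schwann cell genes were called lower for 3 of 8 in afatinib skin and 6 of 8 in gefitinib skin (median -1.40 and -1.92), beside 0.372% and 5.45% of all loci. These lists differed between the same groups as the genes given below, and their part in those changes was not tested. Afatinib replicate 1 stood apart from its partner: across genes its log CPM had a correlation of 0.938 with afatinib replicate 2, against 0.955 and 0.956 with the untreated libraries.

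In gefitinib skin 5 of the 39 tested JAK-STAT genes were lower than in untreated skin and 1 was higher. Those that fell were Jak1, the kinase shared by the gp130, interferon and gamma-chain receptors, Il6st, which encodes the shared receptor chain gp130, Ghr, the growth hormone receptor, and the STAT gene Stat5b with Cish, a known STAT5 target and brake. Ptpn2, a phosphatase that acts on JAKs and STATs, rose. The lower genes were 12.8% of those tested, beside 5.45% of all loci called lower, and the single higher gene was 2.56%, beside 12.3% of all loci called higher (edgeR's quasi-likelihood test, Benjamini-Hochberg adjusted p under 0.05). The median log2 fold change of the 39 genes was -0.40, beside 0.04 over all loci tested, with 26 genes below 0 and 13 above.

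In afatinib skin none of the 39 genes passed the same test against untreated skin, where 0.372% of all loci were called lower and 3.6% higher. At an unadjusted p under 0.05, 4 members were lower (10.3%, beside 5.91% of all loci) and 3 were higher (7.69%, beside 16% of all loci); DESeq2 called 2 lower (Il6r and Cish) and 0 higher, and limma-voom called none. The members' median log2 fold change was -0.05, beside 0.09 over all loci, with 20 genes below 0 and 19 above. With the 2 inhibitors averaged against untreated skin, 6 members were called lower, the gefitinib 5 and the IL-6 receptor gene Il6r, and Ptpn2 was again called higher. Those counts are 15.4% and 2.56% of the members tested, beside 4.93% and 11% of all loci.

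Library by library, in TMM-scaled CPM, 12 members had all 4 inhibitor libraries below both untreated ones (30.8%, beside 18.8% of all loci): Jak1, Stat4, Stat5a, Stat5b, Il6st, Il6r, Ifngr1, Ifnar1, Ifnar2, Ghr, Cish and Pias4. Another 4 had all 4 above (10.3%, beside 27.2% of all loci): Il10rb, Socs5, Ptpn2 and Ptpn6. Taken by drug, groups did not overlap for 12 members that were lower (30.8%, beside 21.8% of all loci) and 12 that were higher (30.8%, beside 31.5%) in afatinib skin, and for 19 lower (48.7%, beside 33.9%) and 6 higher (15.4%, beside 38.8%) in gefitinib skin. The 2 drugs were set against the same untreated libraries, so these counts are not independent of each other. They also rest on the scaling: TMM factors ran from 0.718 for untreated replicate 1 to 1.394 for afatinib replicate 2.

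**Figure D1:**
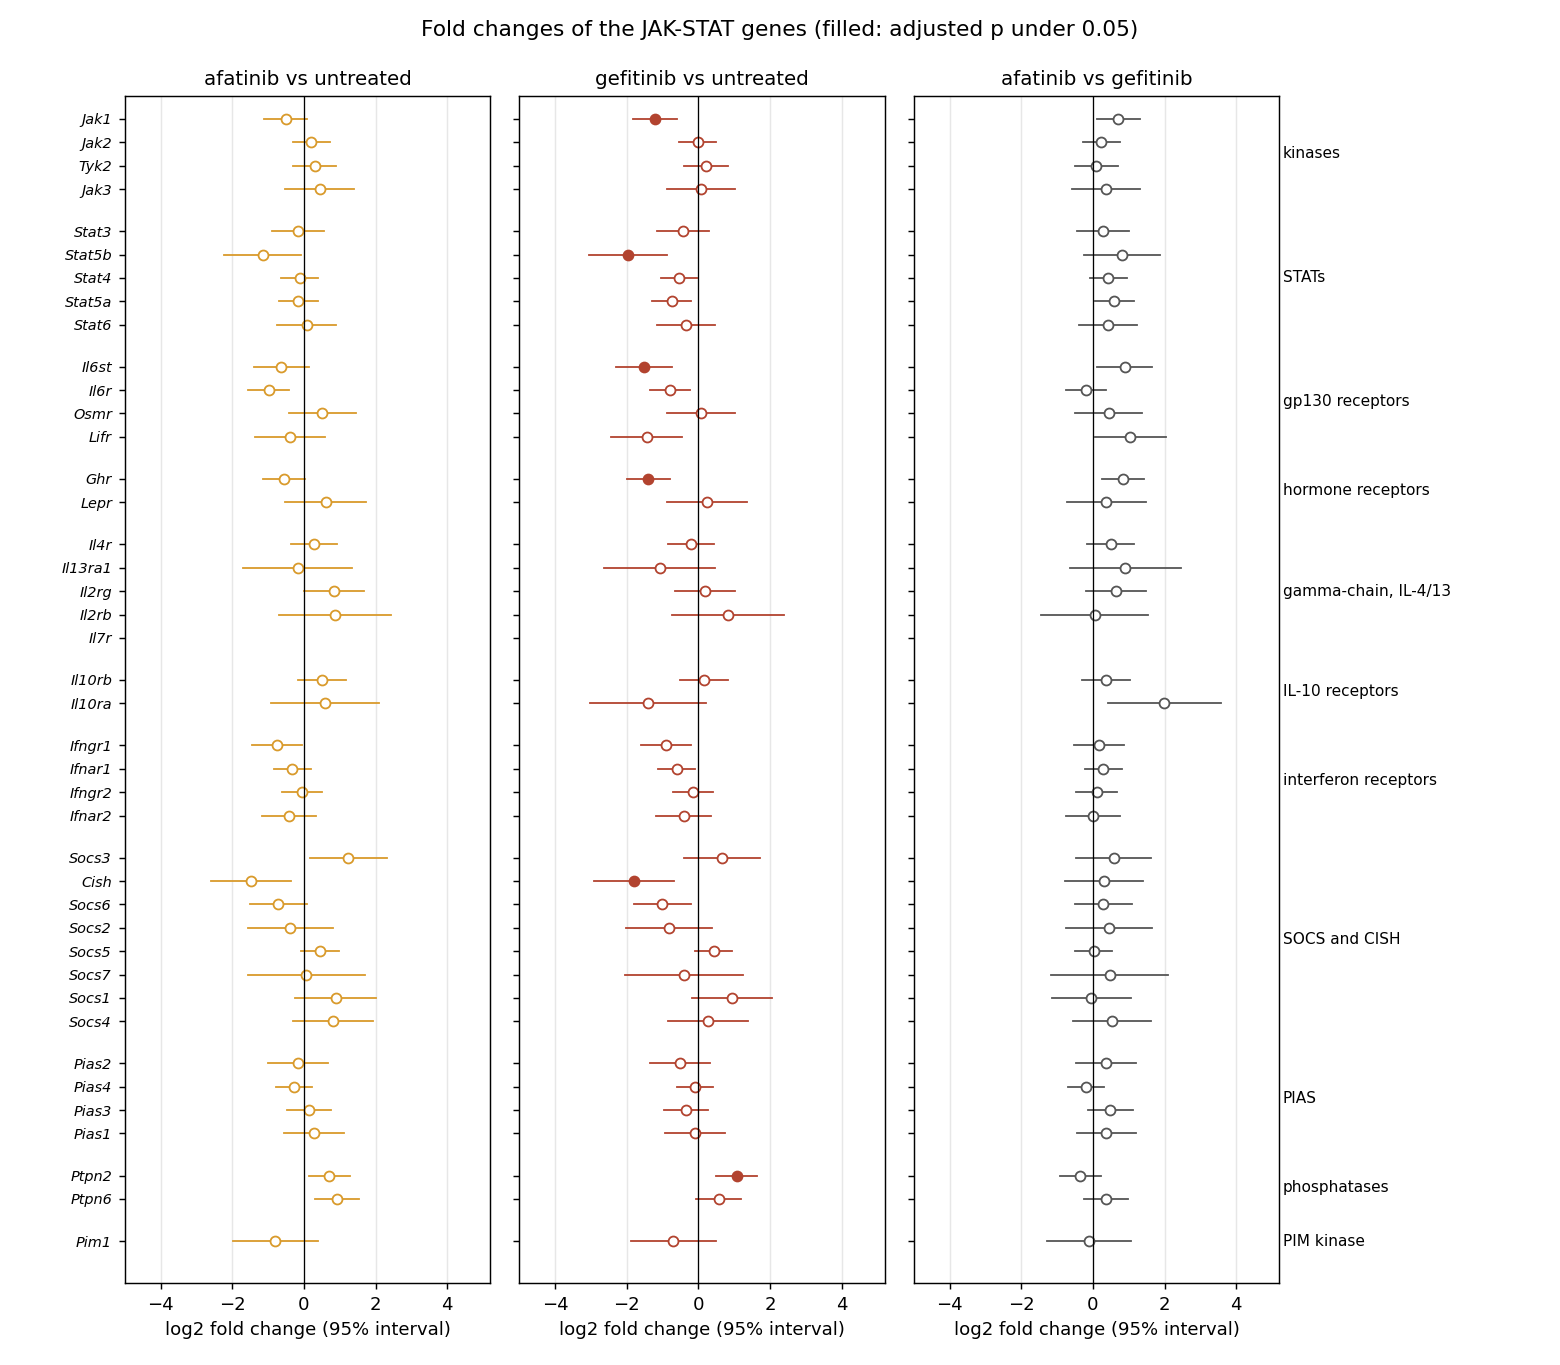
Log2 fold change of each JAK-STAT gene with its 95% interval, by role, for afatinib against untreated, gefitinib against untreated and afatinib against gefitinib; filled points passed an adjusted p of 0.05, and Il7r was not tested. The 6 filled points, all in the gefitinib panel, are Jak1, Stat5b, Il6st, Ghr and Cish below 0 and Ptpn2 above 0.

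These calls rest on 2 libraries a group. With either gefitinib library or either untreated library left out, Ptpn2 was not called in gefitinib skin and the number of lower members fell to 0, except that Il6st was still called without gefitinib replicate 1. Leaving out either afatinib library raised the number of lower members. Those libraries are in neither group but share the filter, scaling and estimate of spread. Without replicate 1 or 2, 17176 and 16871 loci were tested, with all 40 members among them. The share of all loci called in those fits is not given here, so this rise cannot be told apart from a rise over all loci. With library size alone in place of TMM scaling, the median of all loci moved to 0.73 and none of the 5 lower genes passed; relative to that median the members' median was -0.44, as it was under TMM scaling. The log2 changes then read -0.52 for Jak1, -1.29 for Stat5b, -0.82 for Il6st, -0.73 for Ghr, -1.11 for Cish and 1.74 for Ptpn2, which still passed.

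**Figure D2:**
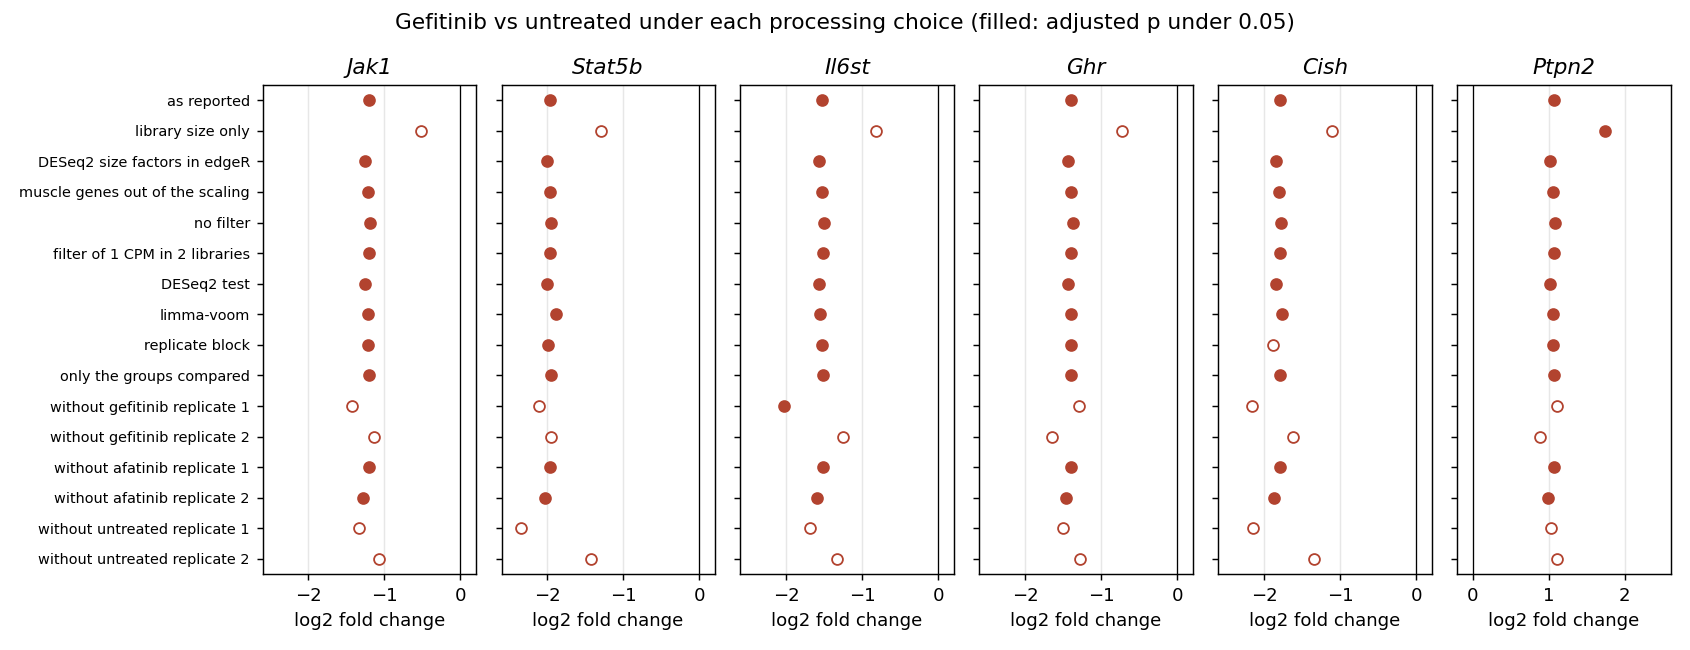
Log2 fold change in gefitinib skin against untreated skin for the 6 called genes, as reported and under 15 other choices; filled points passed an adjusted p of 0.05. No point crosses 0, and most open points are fits with 1 gefitinib or 1 untreated library left out.

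Levels are given as the authors' FPKM, a count per gene length and library depth. Mean FPKM over the 6 libraries ran from 0.281 for the leptin receptor gene Lepr to 53.9 for Ifngr1, which encodes the ligand-binding interferon-gamma receptor chain, with a median of 5.80. Above 20 FPKM on average were 6 of the 40 genes: Ifngr1, Stat3 (30.1), Stat5b (30.1), Ghr (25.9), Socs3 (23.0) and Jak1 (22.2). The means of Stat3 and Stat5b are closer than the spread of either gene, as are those of Socs3 and Jak1. Below 1 FPKM were 4 genes, Lepr and 3 receptor genes of lymphoid and myeloid cells, Il7r, Il10ra and Il2rb. Ranking by TMM-scaled counts per kilobase moved no gene by more than 1 place.

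**Figure D3:**
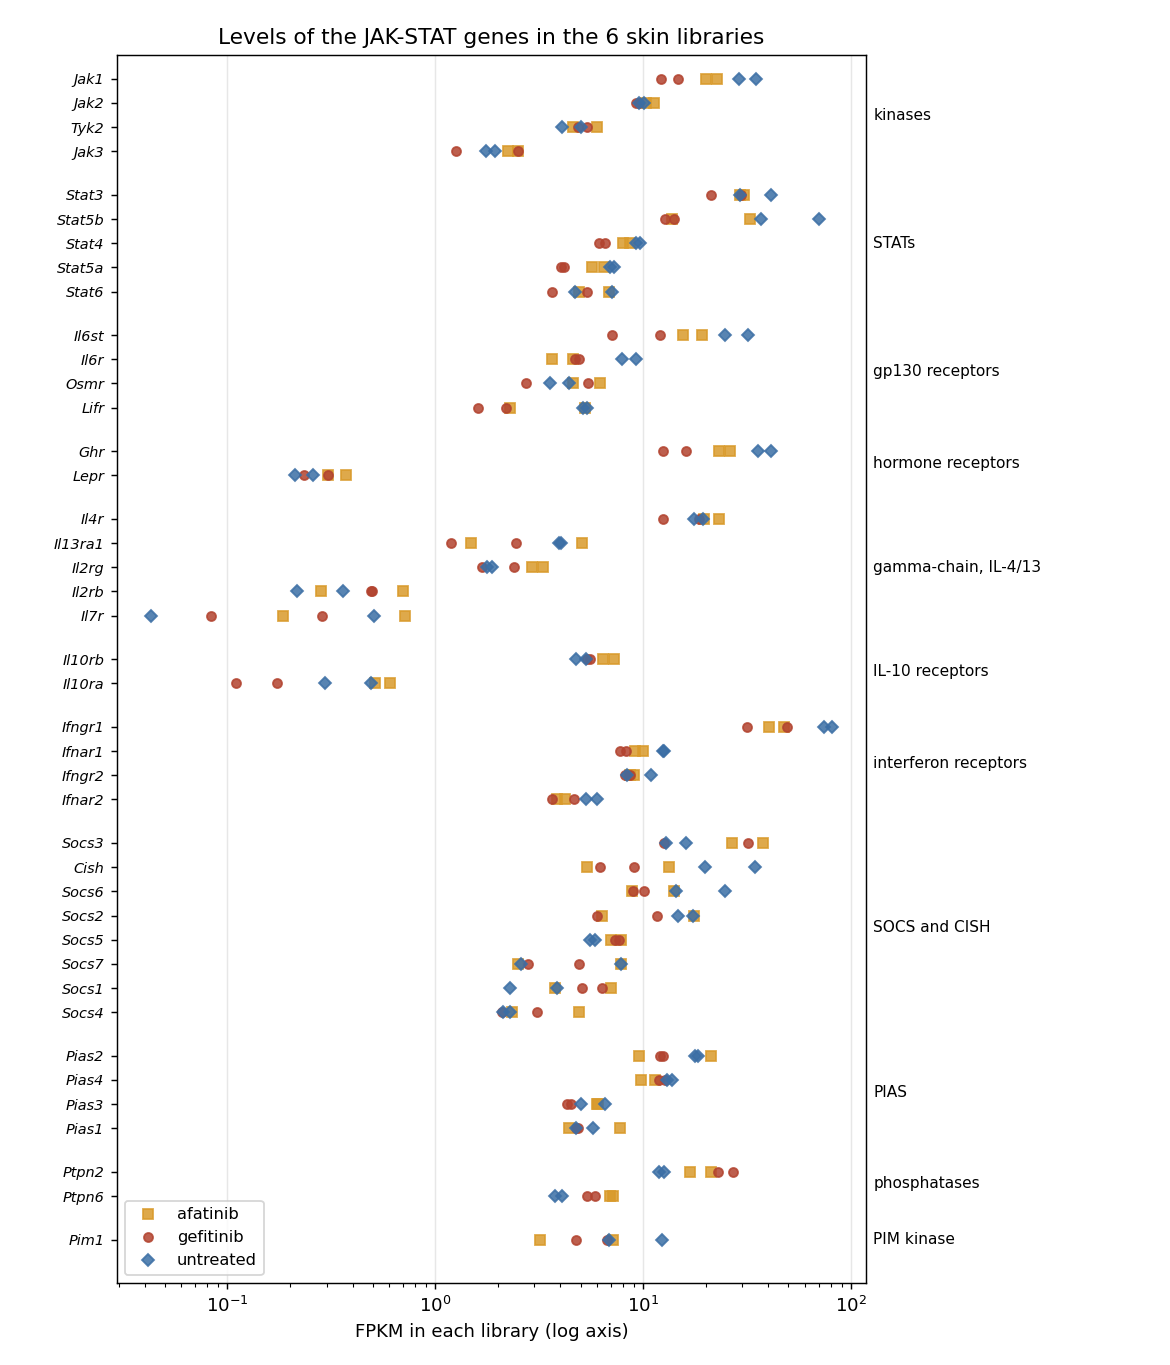
FPKM of each JAK-STAT gene in each library on a log axis, ordered by role, with Il4r added. Squares are afatinib, circles gefitinib and diamonds untreated; gefitinib points for Jak1, Il6st and Ghr lie left of the afatinib points, which lie left of the untreated points.

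Among the kinases, Jak1 differed and the others did not pass. Jak1 (ENSRNOG00000011157, chromosome 5, 119982943 to 120083904, minus strand in the files' coordinates) had 22.8 and 19.96 FPKM in afatinib skin and 14.7 and 12.1 FPKM in gefitinib skin, against 29.0 and 34.7 FPKM in untreated skin. In FPKM the groups formed 3 separate steps with no overlap, and these steps rest on the scaling. Per total library count, afatinib replicate 2 (2346 of 18619303) was above both untreated libraries (1782 of 20166522 and 2525 of 22086673). Jak1 fell in gefitinib skin, with a log2 change of -1.21 ± 0.26 (SE) and an adjusted p of 0.0251; in afatinib skin the change was -0.51, with an adjusted p of 0.299. Jak2, which serves the growth hormone, leptin and interferon-gamma receptors, had 9.28 to 11.2 FPKM across all 6 libraries. Tyk2, used by type I interferon and IL-10 receptors, had 4.08 to 6.01 FPKM, and Jak3, the partner of the lymphoid gamma chain, had 1.26 to 2.49 FPKM. None of these 3 kinases passed a test, and their gefitinib and untreated libraries overlapped or, for Jak2 (9.28 and 9.51 FPKM in gefitinib skin, against 9.57 and 10.1 FPKM in untreated skin), nearly met.

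Stat5b, which carries growth hormone signals, stood apart among the STATs. It had 32.5 and 13.8 FPKM in afatinib skin and 14.1 and 12.7 FPKM in gefitinib skin, against 37.0 and 70.4 FPKM in untreated skin. Every inhibitor library was below both untreated libraries, but afatinib replicate 1 was near the lower of them and afatinib replicate 2 was at the gefitinib level. Stat5b fell in gefitinib skin by 1.96 ± 0.47 (SE) on the log2 scale, with an adjusted p of 0.0324; the change in afatinib skin was -1.15, with an adjusted p of 0.200. Its neighbour and close paralog Stat5a had 6.45 and 5.66 FPKM in afatinib skin and 4.17 and 4.05 FPKM in gefitinib skin, against 6.92 and 7.27 FPKM in untreated skin. The Stat5a groups did not overlap either, and its log2 change in gefitinib skin, -0.75, missed the threshold at an adjusted p of 0.0632. Stat5b, Stat5a and Stat3 lie side by side on chromosome 10 between 88686207 and 88842233; the sources used here do not say how reads shared by the STAT5 paralogs were counted.

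Stat3, the STAT of the IL-6 family and IL-22, was the highest STAT by FPKM, together with Stat5b. It had 30.7 and 29.2 FPKM in afatinib skin and 29.4 and 21.2 FPKM in gefitinib skin, against 29.1 and 40.97 FPKM in untreated skin, so the groups overlapped. Stat4, the STAT of IL-12, had 7.99 to 8.64 FPKM in afatinib skin and 6.11 to 6.55 FPKM in gefitinib skin, against 9.25 to 9.68 FPKM in untreated skin. Neither gene passed in any comparison. Stat6, the STAT of IL-4 and IL-13, had 3.66 to 7.10 FPKM with overlapping groups; Nab2 overlaps it on the opposite strand with 6719 summed counts, and with the strand of counting not given their reads cannot be told apart.

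The receptors of the IL-6 family share gp130, which pairs with a chain for each cytokine. Il6st (ENSRNOG00000013963, chromosome 2, 44289393 to 44314944, plus strand), the gp130 gene, had 15.6 and 19.1 FPKM in afatinib skin and 12.04 and 7.07 FPKM in gefitinib skin, against 24.7 and 31.8 FPKM in untreated skin. Again the 3 groups formed separate steps in FPKM, with gefitinib lowest. Per total library count, afatinib replicate 2 (1628 counts) was above both untreated libraries (1103 and 1677 counts). Il6st fell in gefitinib skin, with a log2 change of -1.52 ± 0.33 (SE) and an adjusted p of 0.0260, and in afatinib skin the change was -0.63, with an adjusted p of 0.308.

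Il6r, which encodes the IL-6 binding chain, was low by a similar amount in both rashes. Its levels were 4.60 and 3.65 FPKM in afatinib skin and 4.71 and 4.93 FPKM in gefitinib skin, against 9.24 and 7.89 FPKM in untreated skin. The 4 inhibitor libraries lay close together and below both untreated ones. Il6r missed the threshold in each drug alone, at a log2 change of -0.99 and an adjusted p of 0.0673 in afatinib skin, and at -0.79 and 0.0582 in gefitinib skin. Averaged over the inhibitors it fell by 0.89 ± 0.20 (SE), with an adjusted p of 0.0288. That call was lost with either gefitinib or either untreated library left out, and with library size alone.

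Lifr, the leukaemia inhibitory factor receptor, had 2.29 and 5.27 FPKM in afatinib skin and 2.18 and 1.60 FPKM in gefitinib skin, against 5.15 and 5.38 FPKM in untreated skin. One afatinib library was at the untreated level and the other at the gefitinib level; the gefitinib change of -1.44 on the log2 scale had an adjusted p of 0.0554. Osmr, the oncostatin M receptor, had 4.61 and 6.19 FPKM in afatinib skin and 5.42 and 2.73 FPKM in gefitinib skin, against 4.41 and 3.57 FPKM in untreated skin, with no group apart from the rest. Endothelial genes (9 of 10 found, each with a count in every library) summed to 353 and 301 TMM-scaled CPM in afatinib skin and 264 and 88.8 in gefitinib skin, against 567 and 476 in untreated skin. Of these 9 genes none was called in afatinib skin, where 0.372% of all loci were called lower. In gefitinib skin 4 were called lower (44.4%, beside 5.45% of all loci). The median log2 change of the 9 was -0.73 in afatinib skin and -1.40 in gefitinib skin. Fibroblast genes (10 of 10, each with a count in every library) summed to 9236 and 3404 TMM-scaled CPM in afatinib skin and 6406 and 1322 in gefitinib skin, against 21649 and 10447 in untreated skin; none was called in either drug, with a median of -0.65 in afatinib skin and -1.28 in gefitinib skin. For both lists the sum in every inhibitor library was below both untreated sums. Most fibroblast counts came from the collagen genes Col1a1 and Col3a1, and genes of that list did not all follow the sum. Thy1 had 29.0 and 48.8 FPKM in afatinib skin and 37.9 and 15.1 FPKM in gefitinib skin, against 22.9 and 21.9 FPKM in untreated skin. The list's median change was below 0 in both drugs, as given above. Gefitinib replicate 2 was lowest for both lists and for Il6st and Lifr; the part of these lists in the Il6st and Lifr values was not tested.

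The growth hormone receptor gene Ghr (ENSRNOG00000015654, chromosome 2, 53150370 to 53413638, minus strand) had 26.3 and 23.2 FPKM in afatinib skin and 12.5 and 16.1 FPKM in gefitinib skin, against 35.7 and 41.4 FPKM in untreated skin. In FPKM the groups did not overlap, and both afatinib libraries lay between the gefitinib and untreated ones. Per total library count, afatinib replicate 2 (1993 counts) was above both untreated libraries (1605 and 2203 counts). Ghr fell in gefitinib skin, with a log2 change of -1.40 ± 0.25 (SE) and an adjusted p of 0.0169, which was the smallest adjusted p of any member in that comparison. In afatinib skin the change was -0.57, with an adjusted p of 0.240. Lepr stayed between 0.211 and 0.372 FPKM in the 6 libraries.

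Of the receptors used by lymphoid cytokines and by IL-4 and IL-13, none passed a test. Il2rg, the common gamma chain, had 2.91 and 3.30 FPKM in afatinib skin and 2.40 and 1.67 FPKM in gefitinib skin, against 1.78 and 1.88 FPKM in untreated skin. Both afatinib libraries were above all others, and the gefitinib libraries fell on either side of the untreated pair. T cell genes (10 of 10 found, 9 or 10 with a count) summed to 28.6 and 22.04 TMM-scaled CPM in afatinib skin and 14.97 and 11.2 in gefitinib skin, against 17.97 and 8.55 in untreated skin. Both afatinib sums were the highest, and the gefitinib sums lay between the untreated ones. Genes of that list did not all follow the sum. Of 8 tested, 1 was called higher in each drug (12.5%, beside 3.6% of all loci in afatinib skin and 12.3% in gefitinib skin). In gefitinib skin Lck had 1.64 and 1.41 FPKM, against 0.706 and 0.483 FPKM in untreated skin. Cd4 had 2.69 and 1.12 FPKM, against 6.38 and 2.50 FPKM. Among the T cell genes Cd5 was at 0 in 2 libraries and Trat1 in 1, and the list's part in the Il2rg values was not tested. Il2rb stayed between 0.217 and 0.699 FPKM. Il13ra1, which pairs with the IL-4 receptor for IL-13, had 1.49 and 5.10 FPKM in afatinib skin and 2.45 and 1.19 FPKM in gefitinib skin, against 3.92 and 4.01 FPKM in untreated skin. Il4r, outside the counts, had 23.3 and 19.5 FPKM in afatinib skin and 18.6 and 12.5 FPKM in gefitinib skin, against 19.5 and 17.6 FPKM in untreated skin.

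Of the 4 interferon receptor genes, 3 had lower FPKM in every inhibitor library than in either untreated one, and none passed the test. In TMM-scaled CPM these 3 were 75% of the 4, beside 18.8% of all loci. Ifngr1 (ENSRNOG00000012074, chromosome 1, 15062432 to 15080907, plus strand), the most abundant member by FPKM, had 47.8 and 40.3 FPKM in afatinib skin and 49.0 and 31.6 FPKM in gefitinib skin, against 80.8 and 74.2 FPKM in untreated skin. In FPKM all 4 inhibitor libraries were below both untreated libraries by a wide gap. Per total library count, gefitinib replicate 1 (2429 counts) and afatinib replicate 2 (2089 counts) were above both untreated libraries (2192 and 2382 counts). The log2 change was -0.90 in gefitinib skin, with an adjusted p of 0.0758, and -0.82 over both inhibitors, with an adjusted p of 0.0646. Its signalling partner Ifngr2 had 8.19 to 10.9 FPKM with overlapping groups.

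Ifnar1 and Ifnar2 encode the paired chains of the type I interferon receptor. Ifnar1 had 9.17 and 9.93 FPKM in afatinib skin and 8.26 and 7.75 FPKM in gefitinib skin, against 12.7 and 12.5 FPKM in untreated skin. Ifnar2 had 3.85 and 4.22 FPKM in afatinib skin and 4.63 and 3.65 FPKM in gefitinib skin, against 5.32 and 5.99 FPKM in untreated skin. For each, every inhibitor library was below both untreated ones. Ifnar2, Il10rb, Ifnar1 and Ifngr2 are neighbours on chromosome 11 between 31539016 and 31712611, and Il10rb, the shared chain for IL-10 and IL-22, lay the other way, above both untreated libraries in each inhibitor library: it had 7.25 and 6.43 FPKM in afatinib skin and 5.53 and 5.37 FPKM in gefitinib skin, against 5.30 and 4.74 FPKM in untreated skin. Il10ra, the IL-10 binding chain, is at the detection margin, with 16 and 33 counts in afatinib skin and 9 and 5 counts in gefitinib skin, against 14 and 10 counts in untreated skin.

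CISH and the SOCS proteins are the feedback arm: STATs induce their genes, and the proteins then block receptors or JAKs. Cish carries the densest group of STAT-type motifs among the members' promoters, so its upstream sequence and that of Socs1, a JAK inhibitor induced by interferon with 1 such motif, are shown here. Both come from RefSeq (build GRCr8), from a window of 250 bases before to 50 after the gene start. Capitals mark each match to TTCNNNGAA, a palindromic motif that reads alike on both strands. The Cish stretch is chr8:116850719-116850888 on the plus strand and the Socs1 stretch is chr10:5389348-5389416 on the plus strand.
Cish: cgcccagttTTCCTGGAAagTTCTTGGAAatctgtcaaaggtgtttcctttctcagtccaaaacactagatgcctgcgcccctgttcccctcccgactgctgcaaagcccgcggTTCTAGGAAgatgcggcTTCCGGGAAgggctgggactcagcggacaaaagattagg
Socs1: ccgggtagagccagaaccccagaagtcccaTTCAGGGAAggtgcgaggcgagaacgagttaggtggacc

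In Cish the motif begins at -241, -230, -136 and -119 from the start, as 2 close pairs. RefSeq windows were matched for 34 of the 41 names, and 4 of the 34 (11.8%) held TTCNNNGAA: Cish with 4 matches, and Socs1, Ifnar2 and Il10rb with 1 each. Over 33469 RefSeq promoters of the same length the share was 8.87%. A version with 4 rather than 3 bases between TTC and GAA was in 1 of the 34 (2.94%), Ifngr2, against 7.28% of all promoters, and it does not overlap the shorter motif. A match is a description of the letters and not a measured binding site.

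Cish (ENSRNOG00000029543, chromosome 8, 116054465 to 116060723, plus strand in the files' coordinates) had 13.4 and 5.38 FPKM in afatinib skin and 9.02 and 6.22 FPKM in gefitinib skin, against 19.9 and 34.6 FPKM in untreated skin. The inhibitor libraries were below both untreated ones, and afatinib replicate 1 was the highest of them. Cish fell by 1.80 ± 0.48 (SE) on the log2 scale in gefitinib skin, with an adjusted p of 0.0429; the change in afatinib skin was -1.48, with an adjusted p of 0.128. Over both inhibitors Cish fell by 1.64, with an adjusted p of 0.0326.

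Socs3, the gp130 and STAT3 brake, went the other way from Cish in 3 of the 4 inhibitor libraries. It had 26.9 and 37.9 FPKM in afatinib skin and 31.8 and 12.6 FPKM in gefitinib skin, against 12.9 and 16.0 FPKM in untreated skin. Gefitinib replicate 2 was at the untreated level, and the other inhibitor libraries were above it. No test passed: the log2 change was 1.24 in afatinib skin, with an adjusted p of 0.171, and 0.67 in gefitinib skin, with an adjusted p of 0.315. Without gefitinib replicate 1 the gefitinib value turned to -0.22. Socs1 had 3.75 and 7.01 FPKM in afatinib skin and 6.33 and 5.11 FPKM in gefitinib skin, against 3.87 and 2.29 FPKM in untreated skin. Its log2 change in gefitinib skin was 0.93, with an adjusted p of 0.196.

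The remaining SOCS genes did not pass in any comparison. Socs2, the growth hormone brake, had 17.5 and 6.35 FPKM in afatinib skin and 11.6 and 6.02 FPKM in gefitinib skin, against 14.7 and 17.4 FPKM in untreated skin. Socs6 had 14.0 and 8.81 FPKM in afatinib skin and 8.92 and 10.1 FPKM in gefitinib skin, against 14.3 and 24.9 FPKM in untreated skin, and its gefitinib change of -1.01 had an adjusted p of 0.0794. For both genes afatinib replicate 1 sat with the untreated libraries or next to them, and afatinib replicate 2 with the gefitinib libraries. Socs5 had 6.98 to 7.78 FPKM in the 4 inhibitor libraries, against 5.53 to 5.88 FPKM in untreated skin, with no overlap. Socs4 had 2.09 to 4.92 FPKM and Socs7 had 2.49 to 7.86 FPKM, with overlapping groups. Pim1, a STAT-induced survival kinase, had 3.18 and 7.14 FPKM in afatinib skin and 6.71 and 4.74 FPKM in gefitinib skin, against 6.82 and 12.3 FPKM in untreated skin.

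Both phosphatase genes had higher FPKM in every inhibitor library than in either untreated one, and 1 of them passed the test. Over all loci, 27.2% had every inhibitor library above both untreated ones in TMM-scaled CPM, and 12.3% were called higher in gefitinib skin. Ptpn2 (ENSRNOG00000017453, chromosome 18, 63415306 to 63488027, minus strand), which encodes the phosphatase TCPTP, had 16.9 and 21.3 FPKM in afatinib skin and 23.0 and 27.1 FPKM in gefitinib skin, against 11.9 and 12.6 FPKM in untreated skin. The groups did not overlap, and gefitinib was highest. Ptpn2 rose in gefitinib skin, with a log2 change of 1.07 ± 0.25 (SE) and an adjusted p of 0.0305; the change in afatinib skin was 0.72, with an adjusted p of 0.151. Ptpn6, which encodes SHP-1, a phosphatase abundant in blood cells, had 7.18 and 6.95 FPKM in afatinib skin and 5.90 and 5.40 FPKM in gefitinib skin, against 4.06 and 3.79 FPKM in untreated skin. Here too no groups overlapped, with afatinib highest, and the log2 changes of 0.92 and 0.56 had adjusted p of 0.1003 in afatinib skin and 0.165 in gefitinib skin. Myeloid genes (12 of 12, each with a count in every library) summed to 627 and 355 TMM-scaled CPM in afatinib skin and 395 and 214 in gefitinib skin, against 534 and 339 in untreated skin. The groups overlapped, and the myeloid sums did not follow the order of the Ptpn6 values. The 10 neutrophil genes had the same order of groups as Ptpn6. They summed to 1917 and 1683 TMM-scaled CPM in afatinib skin and 714 and 1270 in gefitinib skin, against 7.81 and 6.86 in untreated skin. That sum includes S100a8 and S100a9, which keratinocytes also express. The part of either list in the Ptpn6 values was not tested.

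PIAS proteins hold STATs in check in the nucleus as SUMO ligases, and none of their genes passed. Pias2 had 21.1 and 9.57 FPKM in afatinib skin and 12 and 12.4 FPKM in gefitinib skin, against 17.8 and 18.3 FPKM in untreated skin, so the afatinib pair lay on either side of all other libraries. Pias4 had 9.80 to 12.7 FPKM in the 4 inhibitor libraries, against 13.1 to 13.8 FPKM in untreated skin. Pias1 had 4.39 to 7.72 FPKM and Pias3 4.33 to 6.53 FPKM with overlapping groups; Polr3c (2975 summed counts) and Nudt17 (37) overlap Pias3 on the opposite strand.

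**Figure D4:**
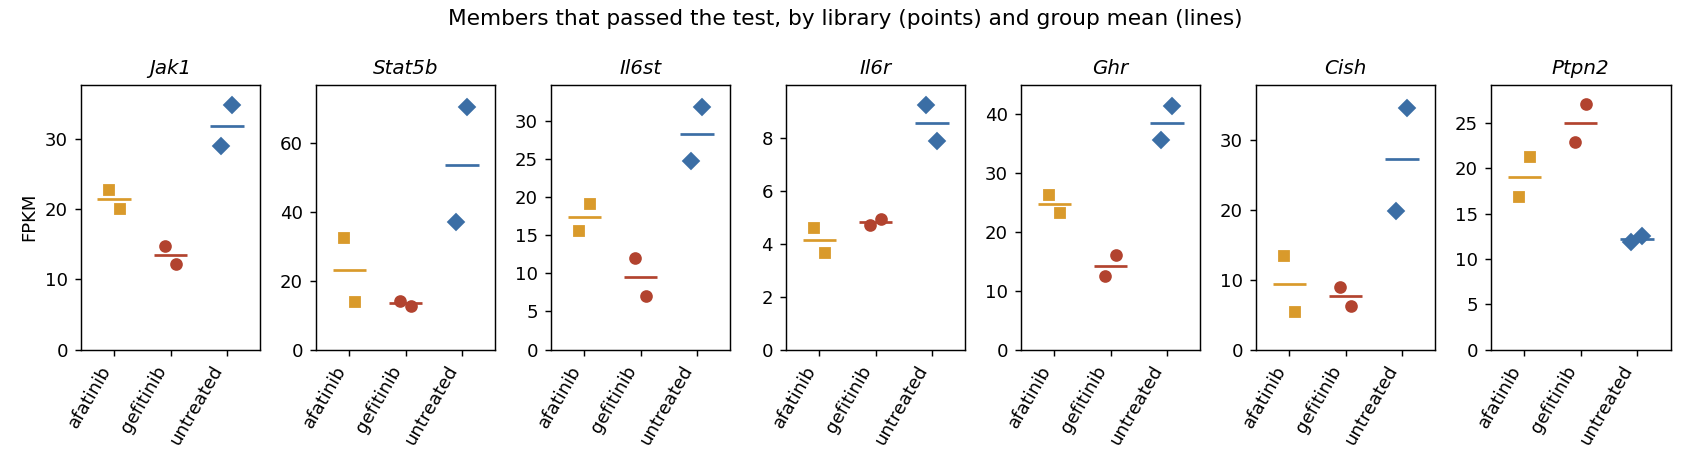
FPKM of the 7 JAK-STAT genes called in gefitinib skin or over both inhibitors, by library, with afatinib, gefitinib and untreated skin in turn; lines are group means. In each of the first 6 panels the 4 inhibitor libraries lie below both untreated libraries, and for Ptpn2 they lie above them.

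Afatinib and gefitinib skin were also set against each other; dose differs with drug in this comparison, so the 2 cannot be told apart. None of the 39 members passed, nor did any locus (0% of all loci called in either direction). At an unadjusted p under 0.05, 6 members were higher in afatinib skin and 0 lower, and DESeq2 and limma-voom called none; over all loci 627 were higher and 319 lower at that level, DESeq2 called 18 and 12, and limma-voom called 0. The members' log2 changes, afatinib over gefitinib, were above 0 for 33 genes and below 0 for 6, with a median of 0.37, beside 0.04 over all loci. Afatinib and gefitinib libraries did not overlap for 17 members that were higher in afatinib skin (43.6%, beside 17.1% of all loci) and for 3 that were lower (7.69%, beside 19.9%).

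For the genes called in gefitinib skin the intervals of that difference were wide. Ghr was 0.83 higher in afatinib skin on the log2 scale, with a 95% interval of 0.24 to 1.42, and Il6st was 0.89 higher (0.12 to 1.66); both had an adjusted p of 0.787. The difference was 0.70 for Jak1 (0.10 to 1.31), and 0.81 for Stat5b, with an interval that included 0 (-0.26 to 1.88). For Cish, Il6r and Ptpn2 the differences were 0.32 (-0.78 to 1.41), -0.19 (-0.75 to 0.37) and -0.35 (-0.92 to 0.22). The intervals of Jak1, Il6st and Ghr, taken singly, did not include 0, but no member passed after adjustment over all loci.

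Some members split the afatinib pair along with the muscle share of the library. Afatinib replicate 1, with 19.3% of counts in muscle genes, had 2.75 times the Socs2 FPKM of afatinib replicate 2, with 6.81%. The same ratio was 2.48 for Cish, 2.35 for Stat5b, 2.21 for Pias2 and 1.59 for Socs6. Jak1 had a ratio of 1.14, and Ghr of 1.13, across the same pair of libraries. The ratio was below 1 for more members than it was above 1, so most members did not go with the muscle share in this pair. The lowest were Il7r (0.258, few counts), Il13ra1 (0.292), Socs7 (0.319), Il2rb (0.402), Lifr (0.434) and Pim1 (0.445). Socs4 (0.477), Socs1 (0.535) and Pias1 (0.569) followed. The gefitinib pair did not split the same way for all of Socs2, Cish, Stat5b, Pias2 and Socs6. Gefitinib replicate 1, with 6.36% muscle counts, was above replicate 2, with 10.6%, for Socs2 (ratio 1.93), Cish (1.45) and Stat5b (1.11). It was below replicate 2 for Pias2 (0.966) and Socs6 (0.883). In untreated skin, where both libraries held over 20% muscle counts, Stat5b and Cish still differed between replicates, with ratios of 0.525 and 0.574. The part of muscle tissue in these differences was not tested. Taking the muscle genes out of the library sizes and scaling left the same 6 members called in gefitinib skin. That choice changes the scaling only, and the median log2 change of all loci went from 0.043 to 0.040. It cannot show how much of a member's counts came from muscle.

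**Figure D5:**
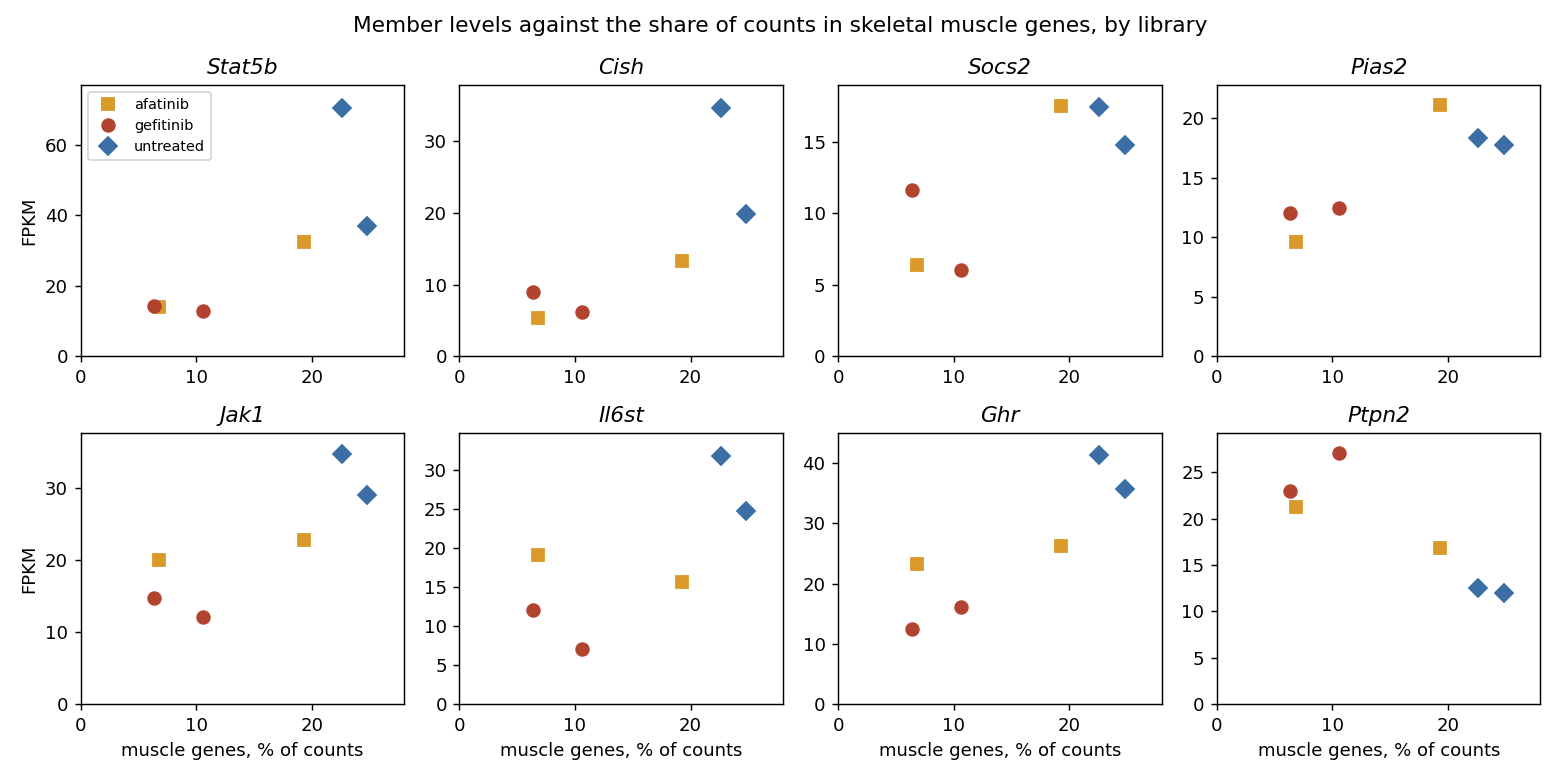
FPKM of 8 JAK-STAT genes against the percent of counts in 25 skeletal muscle genes, 1 point per library (squares afatinib, circles gefitinib, diamonds untreated). The afatinib library at 19.3% muscle counts is nearer the untreated libraries than its partner for Stat5b, Cish, Socs2 and Pias2, and the 2 afatinib points differ little for Jak1 and Ghr.

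Among other ligands of the pathway, 17 of 38 found passed the minimum on low counts, and 4 were called higher in each drug against untreated skin. That is 23.5% of the 17, beside 3.6% of all loci in afatinib skin and 12.3% in gefitinib skin. Those 4 were Il19 and Il24, of the IL-20 subfamily, Csf3, the neutrophil growth factor, and Osm, oncostatin M. Their untreated counts ran from 0 to 12 per library, so they passed that minimum through inhibitor libraries, where they are high. The share of the 17 therefore partly reflects the minimum itself, and enrichment of the list was not tested. Csf3 had 2.95 and 2.94 FPKM in afatinib skin and 2.52 and 2.40 FPKM in gefitinib skin, against 0.216 and 0.0457 FPKM in untreated skin. Osm had 1.52 and 2.23 FPKM in afatinib skin and 1.33 and 0.789 FPKM in gefitinib skin, against 0.227 and 0.235 FPKM in untreated skin. Il24 had 13.4 and 6.87 FPKM in afatinib skin and 6.63 and 5.65 FPKM in gefitinib skin, against 0.722 and 0.255 FPKM in untreated skin. In all 3 genes every inhibitor library lay above both untreated ones, with no overlap. Il19 had 41 and 78 counts in afatinib skin and 85 and 103 counts in gefitinib skin, against 0 in both untreated libraries; with untreated skin set at 3 counts per library it was at least 14.9-fold higher in afatinib skin and at least 20.5-fold higher in gefitinib skin. Il6, the ligand of Il6r, had 14 and 48 counts in afatinib skin and 40 and 6 counts in gefitinib skin, against 0 in both untreated libraries, at least 6.01-fold higher over both inhibitors on the same footing. Il15 fell in gefitinib skin, with 30.9 and 17.2 FPKM in afatinib skin and 13.4 and 36.0 FPKM in gefitinib skin, against 124.6 and 73.2 FPKM in untreated skin; the log2 change was -1.98 in afatinib skin, with an adjusted p of 0.0818, and -1.97 in gefitinib skin, with an adjusted p of 0.0429. Ifng was at 0 in all 6 libraries.

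Of 27 further receptor genes, 21 were tested; 4 were called higher and 1 lower in gefitinib skin, and 1 higher in afatinib skin. The higher genes were 4.76% of the 21 in afatinib skin, beside 3.6% of all loci, and 19% in gefitinib skin, beside 12.3%; the lower gene in gefitinib skin was 4.76%, beside 5.45%. Csf3r, the CSF3 receptor, had 1.89 and 3.95 FPKM in afatinib skin and 1.15 and 0.948 FPKM in gefitinib skin, against 0.119 and 0.173 FPKM in untreated skin. Its untreated counts were 7 and 12, so it passed the minimum on low counts with the help of inhibitor libraries. It is also a neutrophil marker, and the 10 neutrophil genes summed to 1917 and 1683 TMM-scaled CPM in afatinib skin and 714 and 1270 in gefitinib skin, against 7.81 and 6.86 in untreated skin. Of that list 4 to 9 genes had a count in a library, Fpr1 was at 0 in all, and the sum includes S100a8 and S100a9, which keratinocytes also express; the list's part in Csf3r was not tested. Cntfr, Il22ra1 and Ifnlr1 rose in gefitinib skin, with log2 changes of 3.47, 2.59 and 2.33 (adjusted p 0.0132, 0.0205 and 0.0207). Their changes in afatinib skin were 2.37, 1.82 and 1.88, which missed the threshold at adjusted p of 0.0523, 0.0917 and 0.0696. Il20rb fell by 1.86 in gefitinib skin (adjusted p 0.0316), and its change in afatinib skin was -0.77 (adjusted p 0.333). Of 23 further regulators tested, Sh2b3, an adaptor that restrains JAK2, was called lower in gefitinib skin, with a log2 change of -1.18 and an adjusted p of 0.0253 (4.35% of the 23, beside 5.45% of all loci), and none in afatinib skin.

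Known STAT target genes did not move one way. Of 27 tested, 4 were called higher and 1 lower in afatinib skin, and 5 higher and 1 lower in gefitinib skin. The higher genes were 14.8% of the 27 in afatinib skin, beside 3.6% of all loci, and 18.5% in gefitinib skin, beside 12.3%. The lower gene was 3.7% in each, beside 0.372% of all loci in afatinib skin and 5.45% in gefitinib skin. Ccl17, a STAT6 target chemokine, had 11.5 and 27.4 FPKM in afatinib skin and 17.4 and 21.97 FPKM in gefitinib skin, against 0.247 and 0.837 FPKM in untreated skin. Its untreated counts were 1 and 4, so it passed the minimum on low counts through inhibitor libraries. The arginase gene Arg1 had 4.96 and 7.75 FPKM in afatinib skin and 5.997 and 5.85 FPKM in gefitinib skin, against 0.838 and 1.06 FPKM in untreated skin. In both genes every inhibitor library was above the untreated pair, and Ccnd1 rose in both drugs, with a log2 change of 1.91 in afatinib skin and 2.06 in gefitinib skin (adjusted p 0.0431 and 0.0175). Myc rose in gefitinib skin by 1.22 (adjusted p 0.0188), and its change in afatinib skin was 0.80 (adjusted p 0.0990). Fos fell in gefitinib skin, with a log2 change of -2.08 and an adjusted p of 0.0139, and its change in afatinib skin was -1.51, with an adjusted p of 0.0524. Cebpd fell in afatinib skin, with a log2 change of -1.59 and an adjusted p of 0.0369, and its change in gefitinib skin was -0.43, with an adjusted p of 0.290. Many of these targets also answer to other pathways, so their counts are no measure of STAT activity.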

How the data were processed

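Messenger RNA was sequenced from flash-frozen rat back skin, with RNA extracted in Trizol and TruSeq libraries made from total RNA, per the labels' protocols. The submitters' processing notes name 3 tools, HISAT2 2.0.5, DESeq2 1.16.1 and featureCounts 1.5.0-p3; genome build, annotation release and counting strand are not stated in the sources used here. The deposited table holds whole read counts per locus without scaling, and 1342 of its loci have no name. The deposited FPKM values are counts divided by gene length and by a library divisor that was checked to be proportional to a DESeq2 size factor.

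Members and gene lists were chosen with earlier results of these data known. Counts were tested in R 4.3.3 with edgeR 4.0.16 (TMM, filterByExpr with a minimum count of 10, quasi-likelihood test, 1 term per group, all 6 libraries, 3 residual degrees of freedom), with Benjamini-Hochberg adjustment over all 16398 loci in each of 4 comparisons. Standard errors and 95% intervals come from that fit, and the model was tested on simulated data. Group overlap was judged on TMM-scaled CPM. Alternatives used limma 3.58.1, DESeq2 1.42.0, other scalings and filters, a replicate term and leaving out each library. All members are accounted for; those called, and the most abundant of each role, are given library by library, and up to 6 called genes are named per further list. Levels bear counting error from 54 to 16155 summed counts per member.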

Additional observations from a re-analysis of the deposited data

Results flagged for a closer look

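Il10ra, which encodes the IL-10 binding chain, had 0.510 and 0.605 FPKM in afatinib skin and 0.173 and 0.109 FPKM in gefitinib skin, against 0.490 and 0.296 FPKM in untreated skin. Both afatinib libraries were above, and both gefitinib libraries below, both untreated libraries. Neither change against untreated skin passed: the log2 change was 0.59 ± 0.64 (SE) in afatinib skin, with an adjusted p of 0.622, and -1.41 ± 0.69 (SE) in gefitinib skin, with an adjusted p of 0.179. The log2 difference of afatinib over gefitinib was 1.99 ± 0.67 (SE; 95% interval 0.41 to 3.57), with an adjusted p of 0.787 in edgeR's quasi-likelihood test. The values rest on 5 to 33 counts per library.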

How the results depend on the processing

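No called member changed direction in 15 alternatives within the comparisons where it was called, gefitinib skin and both inhibitors averaged. Leaving out each library in turn gave 0 to 13 lower and 0 to 1 higher members in gefitinib skin, 0 to 3 lower and 0 to 1 higher in afatinib skin, and 0 to 9 lower and 0 to 2 higher over both inhibitors. Without afatinib replicate 1, afatinib skin had 3 lower members (Stat5b, Il6r and Cish) and 1 higher (Ptpn2). With library size alone, 0 members were lower in gefitinib skin, 0 lower and 2 higher over both inhibitors, and in afatinib skin Jak1 (0.0873), Il6st (0.0128) and Ghr (0.0260) turned just above 0 on the log2 scale. DESeq2 called 10 lower members in gefitinib skin and 2 in afatinib skin. A fit of only the groups compared called 11 lower in gefitinib skin and 3 over both inhibitors. With no filter on low counts, 1 higher and 2 lower members were called in afatinib skin and 2 higher over both inhibitors. limma-voom called 0 higher and 3 lower over both inhibitors. Leaving out a library moved Socs3 in gefitinib skin to between -0.22 (without gefitinib replicate 1) and 1.11, and Cish in afatinib over gefitinib skin to between -0.46 (without afatinib replicate 1) and 0.83. The causes were not tested. Afatinib against gefitinib gave 0 members throughout. The shares of all loci called under these alternatives are not given in this section. A change in the number of members called therefore cannot be told apart from a change over all loci.

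Replicate numbers did not pair the samples: deviations of same-numbered libraries correlated at -0.23 between afatinib and gefitinib, 0.06 between afatinib and untreated, and 0.04 between gefitinib and untreated. With a replicate block, over both inhibitors 3 members were lower (Il6r, Ghr and Cish) and 0 higher, and in gefitinib skin 4 were lower and 1 higher. With 2 libraries a group and 3 residual degrees of freedom, values of members without a call leave moderate changes undetectable.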
